A study of Gallus gallus with 12 samples.

Results

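The comparison described here is that of chicken embryonic fibroblasts (CEFs) transfected with a siRNA against *Myoz3*, named Inter, and CEFs transfected with a non-specific control siRNA, named NC. It uses 6 of the 12 RNA-seq libraries of the study, 3 of Inter and 3 of NC, which were chosen by their labels, and it covers all genes of the count table. CEFs are primary connective tissue cells, which were grown here from 9-day-old embryos of specific-pathogen-free eggs of broiler chickens. Each sample received 20 pmol of siRNA by lipofection, RNA was extracted after 48 hours, and each transfected sample gave 1 library. The cells of both groups therefore received a siRNA and a lipid reagent, and by design the groups differed in which siRNA they received. The other libraries of the study received vectors and are not described here.

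*Myoz3* encodes a myozenin, one of a small family of proteins of the muscle Z-disc that bind alpha-actinin and the phosphatase calcineurin. Calcineurin removes phosphate from NFAT transcription factors, which then enter the nucleus, and in mammals this route takes part in setting the type of skeletal muscle fibres. A siRNA is a short double-stranded RNA. One of its strands is loaded into the Argonaute protein and directs the cleavage of the mRNA that it matches, so a knockdown lowers an mRNA without removing its gene. CEFs are used as a fibroblast culture, and its purity was not checked here. The embryos were minced after head, abdominal organs and bones had been taken out, and the study names no step that removed muscle. The comparison asks which transcripts differ in these cells after transfection with the siRNA.

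The deposited table pairs its 26102 Ensembl gene IDs with no gene symbols, and 0 of them could be matched to the RefSeq gene table used here. The *Myoz3* level of each library, the fibroblast markers and the gene lists written for this work were therefore not analysed here, and the labels were not checked by the targeted gene. For the same reason the risen and fallen genes are described by their expression level, effect size and consistency across libraries, and only 2 risen and 2 fallen genes are given by their IDs.

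The Inter libraries held between 14261605 and 19804175 counts, and the NC libraries between 13291600 and 15969800. No pair of replicates was a repeat of one library, since the chi-square per degree of freedom of their counts, which is about 1 for repeated counts, was at least 3.62. Inter 1 and Inter 2 were close to each other by this measure (3.62), as were NC 1 and NC 2 (3.65). Inter 3 differed more from Inter 1 (13.5) and Inter 2 (11.5), and NC 3 differed more from NC 1 (8.24) and NC 2 (10.1). Both groups thus held a library that stood apart from the rest of its group. The study describes Inter 3 as abnormal by its place in a plot of the libraries and its *Myoz3* level by qRT-PCR, and its heatmap leaves Inter 3 out, while the sentence on the exclusion names NC 3. Either would be a choice made after the libraries had been measured. The main results are given here without and with Inter 3. With Inter 3 kept and NC 3 removed, edgeR's quasi-likelihood test called 0 genes, and 882 reached an unadjusted p under 0.05.

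Without Inter 3, the counts of Inter 1 and 2 were compared with those of NC 1 to 3 by edgeR's quasi-likelihood test, and a gene was called at a Benjamini-Hochberg adjusted p under 0.05. Of the 14194 genes tested 32 were called, 0.225% of them. Of these, 14 rose (0.0986%) and 18 fell (0.127%). The called genes were well covered by reads, their changes were mostly under 1.5-fold, and the values of Inter 1 and 2 overlapped those of NC in none of the 32. Over all genes tested the groups did not overlap in 31.3%, with Inter 1 and 2 higher in 13.6% and lower in 17.6%. Once Inter 3 was included, the number of genes called by edgeR's quasi-likelihood test was 0 of 13894 (0%). An unadjusted p under 0.05 was reached with Inter 3 by 700 genes (5.04%), 2.25% of those tested being higher and 2.79% lower in Inter. Without Inter 3 it was reached by 2099 genes (14.8%), with 5.5% higher and 9.29% lower. The smallest adjusted p with Inter 3 was 0.164. With all 6 libraries the likelihood ratio test, which the study's methods name, called 19 genes, and DESeq2 called 15, of the same 13894 tested. The quasi-likelihood fit without the low-count filter called 5 risen and 0 fallen genes of 21466 tested in these 6 libraries.

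The level of a gene is given in CPM, the counts scaled to a common library size by TMM over the 6 siRNA libraries. CPM is not corrected for gene length, so it ranks genes by the reads that cover them. All 32 called genes had a mean level of over 10 CPM, as did 60.05% of the genes tested. The risen genes had mean levels from 11.8 to 338 CPM with a median of 71.4 CPM. The fallen genes had mean levels from 13.4 to 2507 CPM with a median of 187 CPM, against a median of 17.4 CPM over all genes tested. Levels of 100 CPM and over were reached by 4 of the 14 risen genes, by 12 of the 18 fallen genes and by 2021 of the 14194 genes tested.

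The share of genes called was higher in each class of higher mean CPM from 10 CPM upward. It was 0% of the 1277 genes under 1 CPM and of the 4393 genes between 1 and 10 CPM. It was 0.246% of the 6503 genes between 10 and 100 CPM, with 10 risen and 6 fallen. It was 0.723% of the 1937 genes between 100 and 1000 CPM, with 4 risen and 10 fallen, and 2.38% of the 84 genes of 1000 CPM and over, where 2 fell and none rose. The precision of the fold change moved with the level in the same way. The median standard error of the log2 fold change was 0.454 under 1 CPM, 0.242 between 1 and 10 CPM, 0.0943 between 10 and 100 CPM, 0.065 between 100 and 1000 CPM and 0.0619 above.

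**Figure D1:**
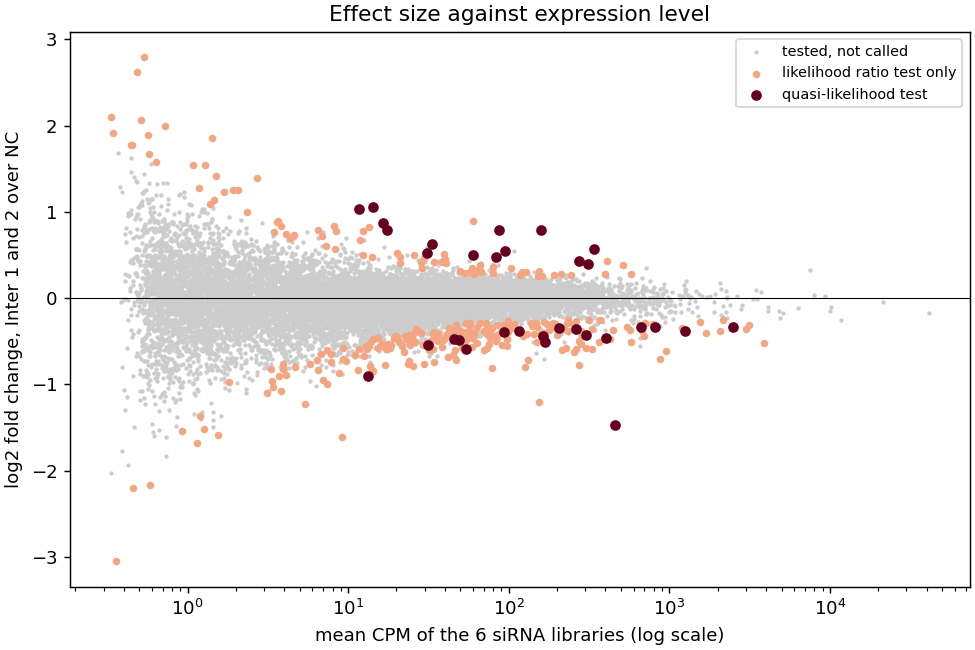
Each point is a gene tested between Inter 1 and 2 and NC, with its mean CPM over the 6 siRNA libraries on a log axis and its log2 fold change (Inter over NC) on the other axis. The 32 genes called by the quasi-likelihood test (dark) all lie above 10 CPM, and most genes with the largest fitted changes lie at low levels and were not called by it.

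The log2 fold changes of the 14 risen genes ranged from 0.40 to 1.05 with a median of 0.60. Those of the 18 fallen genes ranged from -1.48 to -0.33 with a median of -0.43. The gene at -1.48 had the widest spread over NC of all called genes, from 410 to 819 CPM. Its Inter 3 level of 642 CPM lay within NC, and the next largest fall was -0.90. The median over all genes tested was 0.0014, and the median size without regard to sign was 0.13. Among the risen genes 2 changed by over 2-fold, 5 by 1.5- to 2-fold and 7 by up to 1.5-fold. Among the fallen genes 1 changed by over 2-fold, 2 by 1.5- to 2-fold and 15 by up to 1.5-fold. Fitted changes of over 2-fold were found in 145 of the genes tested, 70 higher and 75 lower in Inter, and 3 of these were called. Of the 145, 141 had a mean level under 10 CPM, where the standard errors were large (median 0.47 over the 145). The other called genes had smaller changes, 7 of 1.5- to 2-fold and 22 of up to 1.5-fold.

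Most calls had an adjusted p close to the threshold. The Benjamini-Hochberg adjustment gave 1 value, 0.0424, to called genes with quasi-likelihood p-values from 3.3e-05 to 8.7e-05. These tied adjusted values do not rank the genes among themselves. An adjusted p of 0.04 to 0.05 was found for 7 of the 14 risen genes and 17 of the 18 fallen genes, and 2 risen genes and 0 fallen genes had an adjusted p under 0.01. At an adjusted p under 0.1 there were 36 risen and 83 fallen genes, and at an adjusted p under 0.2 there were 226 and 507. With Inter 3, 1 risen gene and 0 fallen genes had an adjusted p under 0.2.

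The risen gene with the smallest p was ENSGALG00000016919. It had 113, 116 and 96.0 CPM in Inter 1, 2 and 3, against 68.1, 69.2 and 63.5 CPM in NC 1, 2 and 3, from between 889 and 2338 counts per library. All 3 Inter libraries lay above all NC libraries, with Inter 3 between Inter 1 and 2 and NC. The fold change without Inter 3 was 1.73, a log2 fold change of 0.79 (SE, standard error, 0.06), with a Benjamini-Hochberg adjusted p of 0.000481 in the quasi-likelihood test. With Inter 3 the log2 fold change was 0.69 (SE 0.08), still the smallest p of all genes tested, and the adjusted p was 0.164 by the same quasi-likelihood test. The call also ended without Inter 1 (adjusted p = 0.0767 by the quasi-likelihood test) and without Inter 2 (0.0748), where the lone Inter library was assumed to vary like NC, and with all groups of the study in one fit (0.0719).

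ENSGALG00000006613 was the risen gene with the highest mean level. It had 408, 430 and 335 CPM in Inter 1, 2 and 3, against 304, 288 and 263 CPM in NC 1, 2 and 3. The groups did not overlap, but Inter 3 was nearer to NC 1 than to Inter 1 or 2. Without Inter 3 the log2 fold change was 0.57 (SE 0.07) and the quasi-likelihood adjusted p was 0.0119, for a fold change of 1.49. With Inter 3 it was 0.46 (SE 0.10) and the quasi-likelihood adjusted p was 0.743. Without Inter 1 or Inter 2, which left a lone Inter library whose group spread was not measured, the log2 fold change was 0.60 or 0.53.

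Among the fallen genes, ENSGALG00000033522 had the smallest p. Its levels were 39.6, 42.5 and 56.7 CPM in Inter 1, 2 and 3, against 61.3, 66.6 and 59.1 CPM in NC 1, 2 and 3. All Inter libraries lay below all NC libraries, and Inter 3 lay just below NC 3, the lowest of NC. The log2 fold change without Inter 3 was -0.59 (SE 0.08), at a quasi-likelihood adjusted p of 0.0236. With Inter 3 it was -0.43 (SE 0.12), at an adjusted p of 0.840. The call was also lost without NC 1 (adjusted p = 0.0856) in the quasi-likelihood test. Without Inter 1 or Inter 2, which left a lone Inter library whose group spread was not measured, the log2 fold change was -0.54 or -0.64.

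ENSGALG00000029429 was the fallen gene with the highest mean level and ranked 25 by mean CPM among the genes tested. It had 2136, 2167 and 2516 CPM in Inter 1, 2 and 3, against 2688, 2802 and 2732 CPM in NC 1, 2 and 3, from at least 31160 counts per library. Its groups did not overlap, and the values within NC and within Inter 1 and 2 were close. The log2 fold change was -0.33 (SE 0.06), a level in Inter of 0.793 times that in NC, and the quasi-likelihood adjusted p was 0.0424. With Inter 3 it was -0.27 (SE 0.07), at an adjusted p of 0.797. The call was lost without NC 1 (adjusted p = 0.195) or NC 2 (0.0969) by the quasi-likelihood test. It was also lost with libraries scaled by total counts only (0.0801) and with all groups of the study in one fit (0.104). Without Inter 1 or Inter 2, which left a lone Inter library whose group spread was not measured, the log2 fold change was -0.33 or -0.34.

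**Figure D2:**
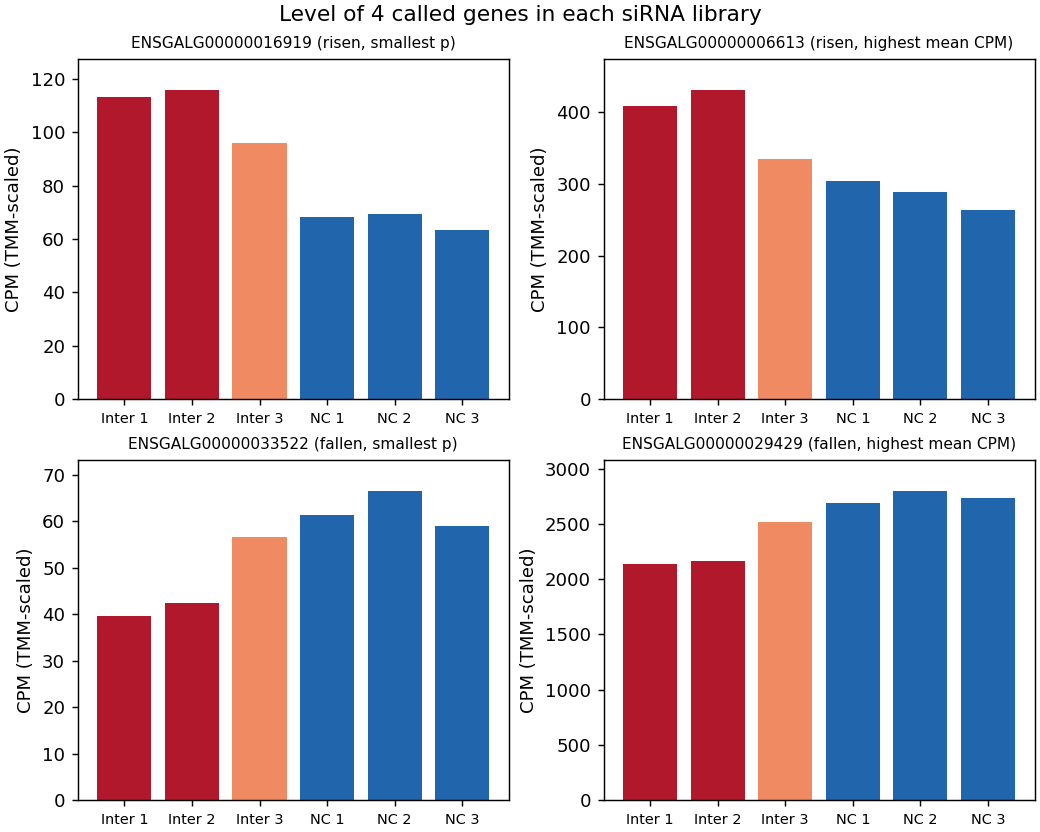
Bars give the level in CPM of 4 called genes in Inter 1, 2 and 3 (red, with Inter 3 in orange) and NC 1, 2 and 3 (blue), with axes that start at 0. In ENSGALG00000016919 the Inter 3 bar (96.0 CPM) stays near those of Inter 1 and 2, and in ENSGALG00000033522 it stands (56.7 CPM) near those of NC.

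Consistency within the groups was described on log2 CPM, for which a prior count of 2 was added. Inter 1 and Inter 2 differed by a median of 0.0444 in the risen genes and 0.0837 in the fallen genes, against 0.124 over all genes tested. The median SD over the NC libraries was 0.103 in the risen genes and 0.0602 in the fallen genes, against 0.124 over all genes tested. Close replicates are part of what the test selects, so these values describe the called genes and do not support them. The called genes also had higher median levels than all genes tested, and the values over all genes are not matched for level. The gap between the nearest Inter 1 or 2 library and the nearest NC library had a median of 0.45 in the risen genes and of -0.31 in the fallen genes on the log2 scale. The gap was at least 0.26 in size in all 32.

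The position of Inter 3 differed between the risen and the fallen genes. Inter 3 had no part in the calls, but it is set here against the same NC libraries as Inter 1 and 2. The calls depend on those NC values, which can by itself place Inter 3 on the called side. The shares over all genes tested are therefore no strict baseline. Inter 3 lay above every NC library in 13 of the 14 risen genes and within NC in the other gene. Over all genes tested it was above every NC library in 25.9%. It lay below every NC library in 12 of the 18 fallen genes, within NC in 4 and above every NC library in 2, while it was below every NC library in 26.1% of all genes tested. As a share of the log2 difference of Inter 1 and 2 from NC, Inter 3 reached a median of 54.4% in the risen genes (from 12.9% to 89.05%) and 26.0% in the fallen genes (from -20.8% to 74.4%). The share was over 50% in 8 of the 14 risen genes and in 1 of the 18 fallen genes. No test was made of this difference between the risen and the fallen genes.

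Relative to the mean of the NC libraries, the 14 risen genes had a median log2 difference of 0.63 in Inter 1, 0.57 in Inter 2 and 0.42 in Inter 3, against -0.05, 0.04 and -0.01 in NC 1, 2 and 3. The 18 fallen genes had medians of -0.50, -0.41 and -0.14 in Inter 1, 2 and 3, against 0.02, 0.04 and -0.07 in NC 1, 2 and 3. NC 3 was the lowest of the NC libraries, and so the nearest to Inter, in 15 of the 18 fallen genes, and the highest in none. Over all genes tested NC 3 was the lowest in 39.5% and the highest in 34.3%. In the risen genes NC 3 was the highest of NC in 5 of 14 and the lowest in 5 of 14.

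**Figure D3:**
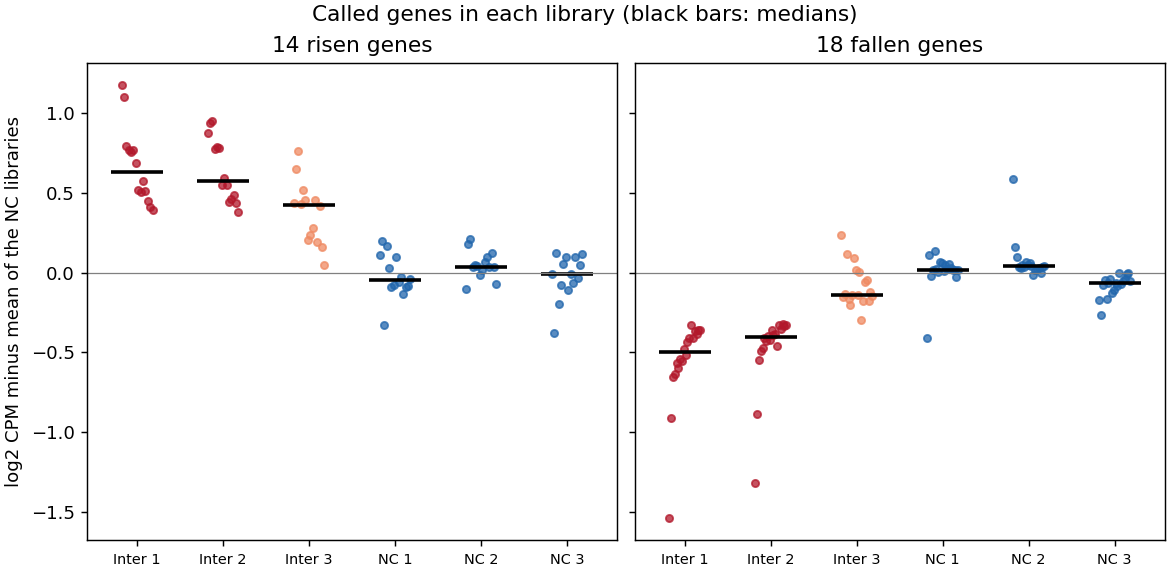
Each point is the log2 CPM of a called gene in one library minus the mean of the NC libraries, for the 14 risen and the 18 fallen genes, with Inter at the left of each panel (red, Inter 3 in orange) and NC at the right (blue). Black bars are medians, which in Inter 3 stand at 0.42 for the risen and at -0.14 for the fallen genes.

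With Inter 3 in the fit, all 14 risen and all 18 fallen genes kept the sign of their fold change, which shares 5 of the 6 libraries with the fit without it. The median log2 fold change of the 14 risen genes was then 0.49 and that of the 18 fallen genes was -0.31. In this quasi-likelihood fit an unadjusted p under 0.001 was found for 9 of the 14 risen genes and 1 of the 18 fallen genes. One under 0.05 was found for 14 and 15 of them, against 5.04% of the 13894 genes tested. The 5 shared libraries had already chosen these genes, so these p-values describe the called genes and do not support them. The adjusted p by the quasi-likelihood test lay between 0.164 and 0.919 for the risen genes and between 0.338 and 0.934 for the fallen genes.

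The likelihood ratio test does not carry the uncertainty of each gene's own spread, and without Inter 3 it called 341 genes (2.4%), 94 risen (0.662%) and 247 fallen (1.74%), among them all 32 genes above. This larger set reached lower levels, since 36 of its 94 risen and 34 of its 247 fallen genes had a mean under 10 CPM. The risen genes had a median level of 21.0 CPM and a median log2 fold change of 0.57, and 24 of the 94 changed by over 2-fold. The fallen genes had a median level of 54.3 CPM and a median log2 fold change of -0.47, and 15 of the 247 changed by over 2-fold. The called share was 1.17% under 1 CPM, 1.25% between 1 and 10 CPM, 2.71% between 10 and 100 CPM, 4.39% between 100 and 1000 CPM and 11.9% of the genes of 1000 CPM and over, where all 10 called genes fell.

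In the larger set the risen and the fallen genes stood further apart in their consistency. These genes too were called from the NC values that Inter 3 is set against, so the same limit holds. Of the 94 risen genes, Inter 3 was above every NC library in 66 (70.2%), within NC in 27 and below every NC library in 1. Of the 247 fallen genes, Inter 3 was below every NC library in 51 (20.6%), within NC in 127 and above every NC library in 69 (27.9%). The share of fallen genes with Inter 3 below NC was thus no larger than the 26.1% over all genes tested. NC 3 was the lowest NC library in 225 of these 247 genes (91.1%, against 39.5% of all genes tested), and the highest in 8. The median log2 difference from the NC mean in the fallen genes was -0.57 in Inter 1, -0.42 in Inter 2 and 0.07 in Inter 3, against 0.10, 0.07 and -0.18 in NC 1, 2 and 3. The part of what sets NC 3 and Inter 3 apart in these calls was not tested.

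**Figure D4:**
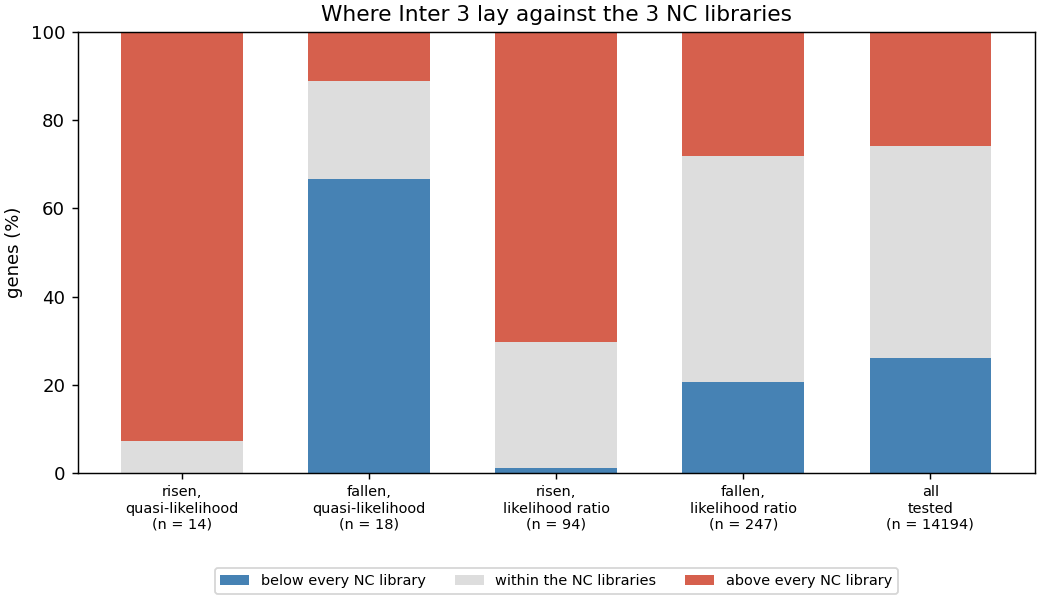
Stacked bars give the percentage of genes in which Inter 3 lay above every NC library (red), within NC (grey) or below every NC library (blue), for the genes risen and fallen by each test without Inter 3 and for all genes tested. Inter 3 was above NC in 92.9% and 70.2% of the risen genes, and below NC in 66.7% and 20.6% of the fallen genes, by the quasi-likelihood and the likelihood ratio test. The NC libraries also took part in the calls, so the bar of all genes tested is no strict baseline.

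By level, Inter 3 lay above NC in 6 of 11 risen genes called by the likelihood ratio test under 1 CPM, 18 of 25 between 1 and 10 CPM, 30 of 40 between 10 and 100 CPM and 12 of 18 between 100 and 1000 CPM. Over all genes tested in these classes the share was 24.2%, 27.4%, 25.9% and 23.4%. Inter 3 is again set against NC libraries that took part in the calls. It lay below NC in 1 of 4, 6 of 30, 24 of 136 and 16 of 67 fallen genes of these classes, and in 4 of 10 genes of 1000 CPM and over, against 23.7%, 24.2%, 26.8%, 28.9% and 33.3% of all genes tested in them. By effect size, Inter 3 lay above NC in 33 of 48 risen genes of up to 1.5-fold (68.8%), 15 of 22 of 1.5- to 2-fold (68.2%) and 18 of 24 of over 2-fold (75%). Over all genes tested with changes of these sizes in either direction, it lay above NC in 25.4%, 31.3% and 40%. It lay below NC in 43 of 175 (24.6%), 6 of 57 (10.5%) and 2 of 15 (13.3%) fallen genes of these sizes, against 26.7%, 16.2% and 12.4% of all genes tested with changes of these sizes. The shares in the fallen genes were thus near or below those of all genes, which themselves differed between above and below NC as the change grew. NC 3 was the lowest NC library in 161 of the 175, 53 of the 57 and 11 of the 15 (92%, 93% and 73.3%), against 38.6%, 55% and 44.8% of all genes tested in these classes.

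The 19 genes that the likelihood ratio test called with Inter 3 (0.137%) were mostly risen, 15 against 4 (0.108% and 0.0288% of the 13894 genes tested). The 15 risen genes had log2 fold changes from 0.45 to 1.97 with a median of 0.69, and mean levels from 0.729 to 338 CPM. The 4 fallen genes had log2 fold changes from -0.46 to -0.36 and mean levels from 22.6 to 284 CPM. No Inter library overlapped NC in any of the 19. Over all genes tested the 6 libraries did not overlap in 11.1%, with Inter higher in 5.05% and lower in 6.05%. All 19 were also called by the likelihood ratio test without Inter 3, and 11 of them, 10 risen and 1 fallen, were among the 32 genes of the quasi-likelihood test. ENSGALG00000016919 and ENSGALG00000006613 were among the 10.

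The balance of risen and fallen genes moved with the library sizes and with single libraries. Inter 3 was left out of all fits in this paragraph. With TMM scaling 43.8% of the called genes rose, and with total counts only 90.9% did, 10 risen against 1 fallen, although the median log2 fold change of all genes moved only to 0.04. Without NC 3 as well, the quasi-likelihood test called 350 risen and 1000 fallen genes of 13917 tested. Without NC 1 it called 4 and 1 of 14066, and without NC 2 it called 14 and 2 of 13897. The 14 risen genes without NC 2 were not the 14 of the main fit. Of the 32 genes called there, 8 risen and 2 fallen genes were called again without NC 2. Without Inter 1 or without Inter 2 a lone Inter library was left, so the spread within Inter was not measured and only effect sizes are given. The median log2 fold change was then 0.58 or 0.64 in the 14 risen genes of the main fit. In its 18 fallen genes it was -0.40 or -0.49.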

How the data were processed

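RNA of the 6 siRNA libraries was measured by paired-end sequencing. The authors removed adapter, poly-N and low-quality reads, mapped the remaining pairs to galGal5 (TopHat2 2.0.12, Bowtie2 2.2.3) and assigned them to genes with HTSeq 0.6.1. The deposited values are these counts, without normalization. Strand setting, counting mode and annotation release: not given in the sources used here. Reads of overlapping or antisense genes and of close paralogs may therefore be split or lost. The table had 0 lines naming no gene and 0 columns of samples from outside the study. It also holds the columns of the vector libraries.

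R 4.3.3 with edgeR 4.0.16 and DESeq2 1.42.0 was used. Genes passed filterByExpr (minimum count 10, minimum total 15), TMM set the library scaling, and glmQLFit with glmQLFTest, in edgeR's default form, gave the test, with Benjamini-Hochberg adjustment over all genes tested at 0.05. The standard error was derived from the estimate and its F statistic. The study's methods name the likelihood ratio test, which was run as an alternative beside others named in the closing section. The gene-wise fit with the default filter and TMM was tried on simulated data for the quasi-likelihood and the likelihood ratio test. The other alternatives and the descriptive steps were not tried in this way. The groups are transfected samples of primary cells, and their embryos are not given. The p-values set the group difference against the spread between these samples. Whether that spread includes differences between embryos is not known. The named genes are, per direction, the called gene with the smallest p and that with the highest mean CPM. The genes compared, the lists and the tests were chosen with earlier results of these data known.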

Additional observations from a re-analysis of the deposited data

How the results depend on the processing

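Without Inter 3 the quasi-likelihood test called 14 risen and 18 fallen genes of 14194 tested. The likelihood ratio test called 94 and 247 of the same genes, and DESeq2 44 and 152. With total counts only, the quasi-likelihood fit called 10 and 1 of them. The fit with no low-count filter called 218 and 616 of 21264, and that of all groups together 3 and 1 of 15303. Leaving out 1 NC library gave 4 to 350 risen and 1 to 1000 fallen genes. Leaving out Inter 1 or Inter 2 left a lone Inter library, for which only effect sizes are counted here. With Inter 3 the quasi-likelihood test called 0 and 0 of 13894 genes. The likelihood ratio test called 15 and 4 of them, and DESeq2 12 and 3. The quasi-likelihood fit with no low-count filter called 5 and 0 of 21466. Leaving out 1 library gave 0 to 14 risen and 0 to 18 fallen genes, where only leaving out Inter 3 gave calls. RLE scaling, a filter of 1 CPM in 2 libraries and the bias-adjusted quasi-likelihood method, which was chosen after seeing the data, left both counts within 1.5 times. The cause of these shifts was not tested. The 4 named genes and the medians of the risen and fallen genes reversed under none of these settings. Their directions were set in these same libraries, so this does not support them. In the main fit with Inter 3 none of the 4 was called.

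The deviations of same-numbered Inter and NC libraries from their group means had correlations of -0.183, 0.0601 and -0.345. Inter 1 and 2 correlated best with NC 3 (0.324 and 0.115), and Inter 3 correlated best with NC 1 (0.284). Deviations within so small a group depend on each other, and Inter 3 and NC 3 stood apart. These correlations therefore cannot decide whether the numbers are pairs, and the numbers were not taken as pairs. With the replicate number as a block, 769 risen and 1473 fallen genes of 14194 were called without Inter 3. NC 3 has no partner in that fit, so it adds nothing to the group difference, which rests on Inter 1 and 2 and NC 1 and 2. The log2 fold change of ENSGALG00000016919 was 0.756 there and 0.757 in the fit without NC 3 and without blocks. Blocking by number can therefore not be told apart here from leaving out NC 3. With Inter 3 the block fit called 0 and 0 of 13894.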
